A study of Mus musculus with 7 samples.

Results

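The collagen genes of the mouse spleen were described here in 3 enlarged mutant spleens (Vav1-iCre;Brca1 F22-24/F22-24) and in 4 wild-type spleens (C57BL6, Brca1+/+), all from animals aged 2 to 3 months. Members were all genes of the count table whose symbol has the form Col, a type number, the letter a and a chain number, which gave 44 of 24062 genes. Vav1-iCre expresses Cre recombinase in blood cells, and the Brca1 allele is flanked by recombination sites around exons 22 to 24. Reticular cells, fibroblasts and vessel walls, known as the main makers of collagen, are not blood cells, and recombination in them was not measured here. The recombinase, the Brca1 allele and the enlarged spleen all go with the mutant group and cannot be told apart, nor can strain background, which is named for wild type only. Each library comes from its own spleen in the labels. Litters and handling days are not given there, and p-values speak for the variation among these 7 spleens only.

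Collagens are the main structural proteins of the extracellular matrix. They are secreted (or, for a few types, held in the cell membrane) as triple helices of alpha chains, each chain with its own gene, and are grouped by the structure they build: fibrils, the sheet-like network of basement membranes, beaded filaments, and smaller collagens that sit on or anchor these. In the spleen, a capsule and trabeculae rich in fibrillar collagen enclose a mesh of reticular fibres made by reticular cells, and the venous sinuses of the red pulp are bounded by an interrupted basement membrane that blood cells squeeze past.

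Depth ranged from 26889712 to 63612532 counts per library, of which the collagen genes took 0.0487% to 0.159%. The targeted gene gave no check of the labels: Brca1 stood at 42.7 to 67.6 CPM (counts scaled to library size) in mutant spleens and 15.7 to 72.8 CPM in wild type, and a count summed over all exons does not isolate the 3 that are removed. Wild-type 4 stood apart in collagen level. Summed over the 44 genes it had 1337 CPM, against 658, 658 and 755 CPM in wild-type 1, 2 and 3 and 1131, 1008 and 565 CPM in mutant 1, 2 and 3. The summed fat markers (8 genes) were also highest in wild-type 4, at 73.9 CPM against 5.83 to 21.1 CPM in the other wild-type spleens and 5.15 to 32.2 CPM in the mutants, and summed mesothelium (capsule surface) markers were 45.8 CPM there against 8.40 to 25.9 CPM elsewhere. Wild-type 2, and to a lesser degree wild-type 1, held pancreas transcripts (summed 15552 and 520 CPM, against 9.34 to 61.8 CPM in the other libraries). The part of these carried-over tissues in the collagen values was not tested.

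The major structural collagens of the spleen were present at overlapping levels in both genotypes. Many less abundant collagens were lower in the mutant, and Col11a2 was higher. Of the 44 genes, 35 passed the filter on low counts. Of these 35, 1 rose (2.86%) and 14 fell (40.0%) in the mutant in the quasi-likelihood test of edgeR (adjusted p under 0.05), and 20 were not called. Over all 15188 genes tested, 57.4% were called, 28.5% higher and 28.9% lower, so the share of collagen genes that rose was below, and the share that fell above, that of the table. Of the 12 collagen genes with the highest mean CPM over the 7 libraries, Col11a2 rose and 11 were not called (median log2 fold change 0.42). Of the other 23 tested, 14 fell and 9 were not called (median -1.49). That ranking includes the mutant libraries, so a rise moves a gene up it and a fall moves it down, which makes part of this split. Col7a1, which fell, ranked 13 but had a wild-type mean of 32.8 CPM. That is above the 18.4 CPM of Col11a2 and the 19.3 CPM of Col6a3, both among the 12. Of those 23, Col17a1, Col22a1, Col4a6 and Col6a6 reached the filter through wild-type libraries alone and so could hardly be other than lower in the mutant. Without these 4, 11 of 19 fell (median -1.28). Over all 35 the median was -0.34, against -0.02 for all genes. Leaving out wild-type 4 moved the median of the collagen genes to -0.06, with 1 higher and 12 lower, and leaving out mutant 2 moved it to -0.86, with 2 higher (Col11a2 and Col5a1) and 12 lower. Without mutant 3, 4 rose (Col11a2 with Col5a1, Col26a1 and Col27a1) and 15 fell. Groups did not overlap for 1 gene that was higher and 13 that were lower in the mutant, where 29.2% of all tested genes were higher and 32.6% lower without overlap (61.7% in all). In whole spleens, fewer collagen-producing cells and less RNA per cell cannot be told apart.

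**Figure D1:**
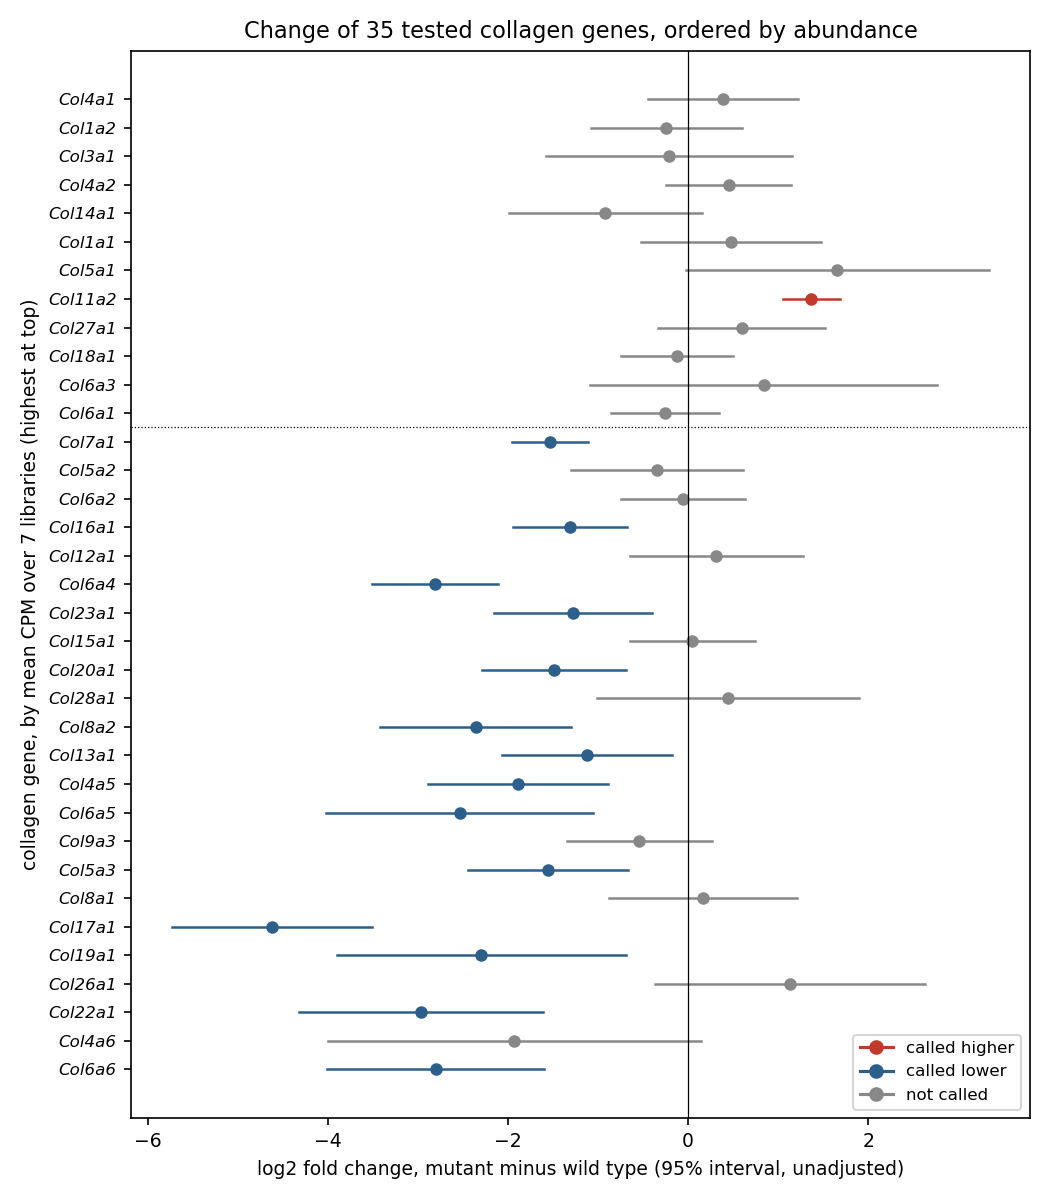
Log2 fold change (mutant minus wild type) of the 35 tested collagen genes, ordered from the highest mean CPM at the top to the lowest, with bars for the unadjusted 95% interval (3 mutant and 4 wild-type libraries). Above the dotted line stand the 12 genes with the highest mean, of which Col11a2 is the called one. The 14 genes called lower all stand below it, in an order that includes the mutant libraries.

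Promoter sequence is shown for 4 members that carry this contrast: Col3a1, an abundant fibrillar gene that was not called, Col11a2, which rose, and Col7a1 and Col6a5, which fell. Each line is the 250 bases before the RefSeq start (GRCm38.p6), 5′ to 3′ on the gene's strand, with capitals for the TATAAA motif, the CCAAT motif or the GGGCGG motif on either strand.
Col3a1, chr1:45311288-45311537, plus strand: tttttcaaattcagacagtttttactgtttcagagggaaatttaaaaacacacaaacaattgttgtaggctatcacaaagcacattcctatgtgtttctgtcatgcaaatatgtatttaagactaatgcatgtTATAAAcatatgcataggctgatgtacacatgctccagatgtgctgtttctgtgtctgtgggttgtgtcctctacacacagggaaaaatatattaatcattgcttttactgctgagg
Col11a2, chr17:34038888-34039137, plus strand: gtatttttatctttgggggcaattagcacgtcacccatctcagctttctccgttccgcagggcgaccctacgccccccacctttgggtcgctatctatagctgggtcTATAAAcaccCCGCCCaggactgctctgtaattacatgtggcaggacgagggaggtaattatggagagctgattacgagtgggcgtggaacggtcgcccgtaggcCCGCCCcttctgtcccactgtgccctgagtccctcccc
Col7a1, chr9:108953336-108953585, plus strand: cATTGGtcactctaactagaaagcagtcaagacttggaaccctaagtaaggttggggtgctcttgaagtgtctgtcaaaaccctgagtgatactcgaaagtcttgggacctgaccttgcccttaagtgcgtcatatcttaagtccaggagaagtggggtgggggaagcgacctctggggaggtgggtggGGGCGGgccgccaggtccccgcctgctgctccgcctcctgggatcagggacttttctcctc
Col6a5, chr9:105960644-105960893, minus strand: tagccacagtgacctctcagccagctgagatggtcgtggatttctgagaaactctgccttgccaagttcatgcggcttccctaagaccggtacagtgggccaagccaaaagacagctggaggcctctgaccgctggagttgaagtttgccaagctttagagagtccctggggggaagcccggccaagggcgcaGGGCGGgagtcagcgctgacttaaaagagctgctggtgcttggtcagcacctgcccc
RefSeq gave windows for 35 of the 44 genes (38 windows). GGGCGG, the core of the GC box, was found in 22 of the 38 windows (57.9%) against 32.7% of 32851 windows of the same length before all genes. CCAAT was found in 13 (34.2% against 33.8%) and TATAAA in 5 (13.2% against 12.4%). The median GC content was 59.0% for the collagen windows and 52.4% for all. These are matches of letters, which show no binding. A single TATAAA match stands in the Col3a1 window and no GGGCGG, and the Col11a2 window holds TATAAA once and GGGCGG on the opposite strand at 2 places. The count table's models of Col11a2 and Col7a1 start downstream of the RefSeq starts used here.

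Fibrillar collagens give tissues their tensile strength. Type I, of Col1a1 and Col1a2 chains, and type III, of Col3a1 chains, form the thick and the reticular fibres. Col1a1 stood at 57.6, 105 and 43.8 CPM in mutant 1, 2 and 3 and at 35.03, 34.1, 39.3 and 89.4 CPM in wild-type 1 to 4. All 3 mutants were above the first 3 wild-type spleens and 2 of them below wild-type 4, and the gene was not called (log2 fold change 0.47, SE 0.43, unadjusted 95% interval -0.53 to 1.47, adjusted p = 0.376, edgeR). Col1a2 stood at 115, 147 and 71.9 CPM in mutant spleens and at 98.1, 92.9, 117 and 218 CPM in wild type. These ranges overlapped (-0.24, interval -1.08 to 0.60). Col3a1 stood at 81.5, 150 and 31.9 CPM in mutant spleens and at 68.2, 57.2, 85.0 and 197 CPM in wild type (-0.21, interval -1.58 to 1.15). The spread of both groups leaves the size of any change in this gene poorly bounded. Without wild-type 4 the log2 fold changes of Col1a1, Col1a2 and Col3a1 were 0.92, 0.11 and 0.32, and none of them was called (lowest adjusted p = 0.0543, for Col1a1, edgeR).

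Col11a2 was the one collagen gene called higher. It encodes a chain of type XI collagen, a minor fibrillar collagen best known from cartilage, where it joins chains from Col11a1 and Col2a1. Col11a2 (chr17:34039437-34066242, plus strand, mm10) stood at 50.3, 45.1 and 47.2 CPM in mutant spleens and at 18.6, 16.9, 20.8 and 17.3 CPM in wild type. The groups lay far apart and each was tight (47.5 ± 2.62 and 18.4 ± 1.79 CPM, SD, n = 3 and 4), a 2.58-fold increase (log2 fold change 1.37, SE 0.14, adjusted p = 3.21e-04, edgeR). Its share of all collagen counts was 5.76% ± 2.25 in mutant spleens and 2.36% ± 0.723 in wild type. In wild-type 4, the wild-type spleen with the most Col1a1, Col1a2 and Col3a1, Col11a2 was within the range of the others. No other gene of the table overlaps Col11a2. Rxrb, a nuclear receptor gene that ends 1033 bases before it on the same strand, stood at 68.4, 70.0 and 91.4 CPM in mutant spleens and at 73.0 to 102 CPM in wild type and was not called (-0.12, SE 0.17). Its partner Col11a1 had 4, 3 and 9 counts in mutant spleens and 1, 1, 4 and 10 in wild type and did not pass the filter. Col2a1, the main collagen gene of cartilage, also stayed below the filter, with 11, 23 and 5 counts in mutant spleens and 1, 1, 3 and 2 in wild type. At these counts it was called higher by DESeq2 (3.34, SE 1.02, adjusted p = 0.00295) and by edgeR without a filter (3.18, SE 0.73, adjusted p = 0.00851). Acan, the cartilage proteoglycan, was also at 2.37 and 3.49 CPM in mutant 1 and 2 but at 0 in mutant 3, and at 0 to 0.133 CPM in wild type. Of 4 tested genes on the cartilage and bone list of 9, Sox9 fell (-3.08, SE 0.42). It reached the filter through wild-type libraries alone and so could hardly be other than lower. Comp (0.43, SE 0.54), Matn1 (0.81, SE 0.52) and Dmp1 (0.23, SE 0.52) were not called. Matn1 rose without mutant 3 (1.22, adjusted p = 0.0254, edgeR, range 0.0254 to 0.510). Ibsp was not tested and was at 0 in all libraries. The summed list stood at 1.47 to 5.22 CPM in mutant spleens and 2.30 to 2.88 CPM in wild type.

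The type V chains, which regulate fibril diameter, did not move together. Col5a1 stood at 207 CPM in mutant 1 and at 26.2 and 27.5 CPM in mutant 2 and 3, against 29.6, 34.7, 16.4 and 29.6 CPM in wild type. The high mean of the mutant group was thus mutant 1 alone, and the gene was not called (1.66, SE 0.72, adjusted p = 0.0831, edgeR). It passed without mutant 2 (2.07, adjusted p = 0.0469) and without mutant 3 (2.07, adjusted p = 0.0389), over a range of 0.0389 to 0.910 across its alternatives, and its log2 fold change was 0.04 without mutant 1. Col5a2 stood at 20.4, 22.7 and 10.7 CPM in mutant spleens and at 14.3 to 39.6 CPM in wild type (-0.34, interval -1.30 to 0.61). Col5a3 was scarce and fell, from 2.75 ± 0.538 CPM in wild type to 1.28, 1.02 and 0.488 CPM in the mutants (-1.56, SE 0.38). Col27a1, a fibrillar collagen of cartilage and other tissues, stood at 41.7 and 57.8 CPM in mutant 1 and 2 but at 14.2 CPM in mutant 3, on either side of the narrow wild-type range of 23.6 to 26.5 CPM. It was not called (0.59, SE 0.40), but without mutant 3 it rose (1.00, SE 0.17, adjusted p = 0.00352; its alternatives ran from 0.00352 to 0.789).

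**Figure D2:**
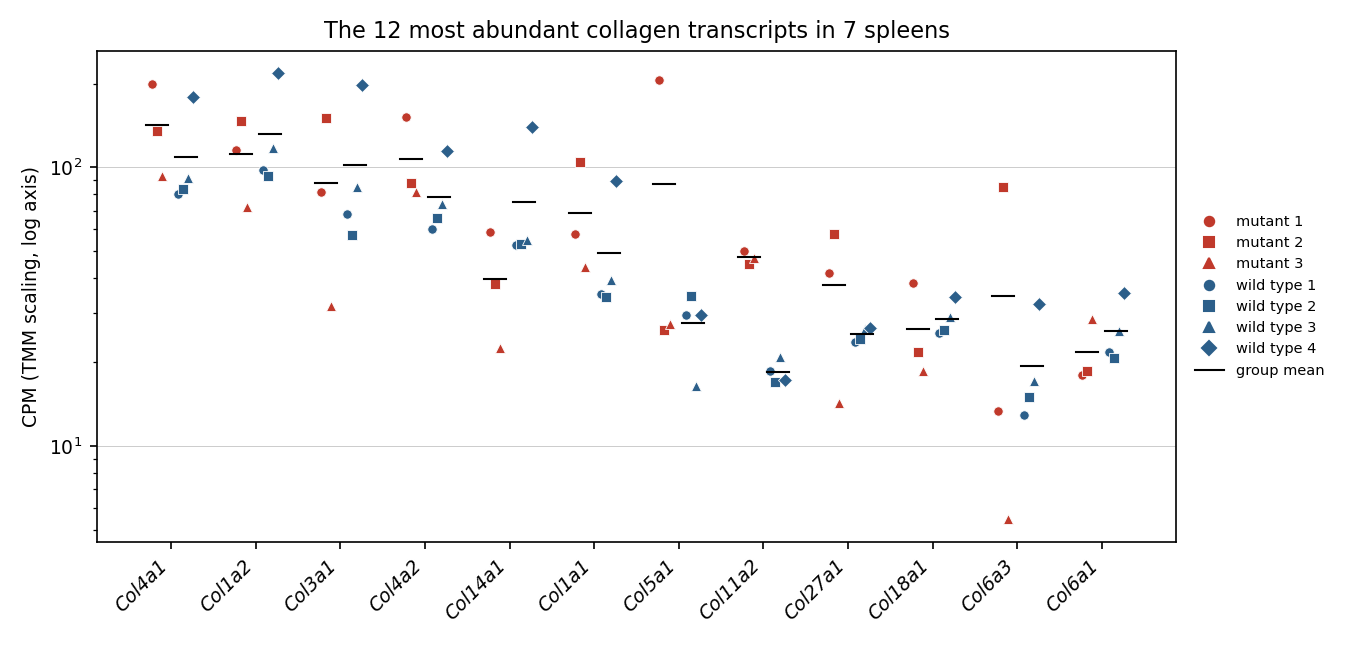
CPM (TMM scaling, log axis) of the 12 collagen genes with the highest mean over all libraries, 1 symbol per library and a black line for each group mean. Col11a2 separates the groups (45.1 to 50.3 against 16.9 to 20.8 CPM), wild-type 4 is the highest wild-type point for all the others but Col5a1, and mutant 1 stands alone for Col5a1 and mutant 2 for Col6a3.

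Type IV collagen is the network of basement membranes. Its ubiquitous chains, Col4a1 and Col4a2, lie head to head on chromosome 8, Col4a1 at 11198423 to 11312826 on the minus strand and Col4a2 at 11312829 to 11449287 on the plus strand in the count table (mm10). In RefSeq (GRCm38.p6) their first bases overlap by 22 bases, chr8:11312805-11312826, printed on the plus strand with capitals for GGGCGG. It is shown because both genes start at its ends.
Col4a1 and Col4a2 start overlap: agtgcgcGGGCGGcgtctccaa
Col4a1 stood at 199, 135 and 93.5 CPM in mutant spleens and at 80.5, 83.5, 91.7 and 179 CPM in wild type. Every mutant was above wild-type 1 to 3 and 2 of 3 were below wild-type 4, and the gene was not called (0.39, SE 0.36, interval -0.44 to 1.22). Col4a2 followed with 152, 87.8 and 81.6 CPM in mutant spleens and 60.0, 65.8, 73.8 and 114 CPM in wild type (0.45, SE 0.30, adjusted p = 0.227, edgeR). Together the 6 type IV genes made up 28.2% ± 5.17 of collagen counts in mutant spleens and 22.6% ± 0.480 in wild type. The levels of the other type IV chains were low. Col4a5 fell, from 3.18, 2.85, 3.65 and 7.34 CPM in wild type to 1.51, 1.02 and 0.912 CPM in the mutants (-1.89, SE 0.43, adjusted p = 0.0073, edgeR). Its head-to-head neighbour on the X chromosome, Col4a6, stood at 0.289, 0.282 and 0 CPM against 0.222 to 1.39 CPM and was not called (-1.93, SE 0.89, adjusted p = 0.0977). Col4a3 and Col4a4, best known from the kidney glomerulus, had 49 and 53 counts in all and were not tested.

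Type VI collagen forms beaded filaments around cells. Its standard chains, Col6a1, Col6a2 and Col6a3, were not called, and its alternative chains, Col6a4, Col6a5 and Col6a6, all fell. Col6a1 stood at 18.0, 18.6 and 28.5 CPM in mutant spleens and 20.7 to 35.3 CPM in wild type (-0.26, interval -0.85 to 0.34). Col6a2 stood at 14.1, 13.6 and 12.05 CPM in mutant spleens and 9.81 to 21.6 CPM in wild type (-0.06, interval -0.74 to 0.63). Col6a3 varied more, at 13.4, 85.1 and 5.44 CPM in mutant spleens and 12.9 to 32.2 CPM in wild type. Mutant 2 lay above all wild-type spleens and mutant 3 below all (0.84, SE 0.83), and the value was -1.05 without mutant 2. The alternative chains lie side by side on chromosome 9, all on the minus strand: Col6a6 at 105689417 to 105828085, Col6a5 at 105856070 to 105960643 and Col6a4 at 105990318 to 106096691 (mm10). Col6a4 stood at 1.51, 2.29 and 1.43 CPM in mutant spleens and at 10.6, 10.3, 11.8 and 16.1 CPM in wild type. The mutants lay far below every wild-type spleen (-2.81, SE 0.30, adjusted p = 3.73e-04, edgeR). Col6a5 stood at 0.928, 0.916 and 0.0977 CPM against 3.11, 3.89, 3.58 and 4.59 CPM (-2.54, SE 0.64, adjusted p = 0.0110). Col6a6 had 7, 2 and 1 counts in mutant spleens and 12, 14, 38 and 55 in wild type (-2.80, SE 0.52, adjusted p = 0.00293). Its group ranges do not overlap, but the counts are few. Col6a6 reached the filter through wild-type libraries alone and so could hardly be other than lower.

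Of the membrane-spanning collagen genes, all 3 tested, Col13a1, Col17a1 and Col23a1, were called lower, and Col25a1, with 24 counts in all, was not tested. Col17a1 (chr19:47646341-47692042, minus strand), which anchors epithelial cells through hemidesmosomes, had the largest decrease of any tested collagen gene. It had 4, 1 and 2 counts in mutant spleens and 54, 25, 79 and 147 in wild type, or 0.0825, 0.0352 and 0.0651 CPM against 1.91, 0.926, 1.75 and 1.94 CPM. The fitted decrease was 24.6-fold (-4.62, SE 0.48, adjusted p = 3.44e-04, edgeR), at counts that leave the mutant level imprecise. Col17a1 reached the filter through wild-type libraries alone and so could hardly be other than lower. Col23a1 stood at 6.89, 2.54 and 3.29 CPM in mutant spleens and at 9.30, 8.37, 11.1 and 12.4 CPM in wild type (-1.28, SE 0.38, adjusted p = 0.0212, edgeR). Its adjusted p was 0.0515, 0.0511, 0.0507 and 0.0533 without mutant 2, mutant 3, wild-type 3 and wild-type 4, within a range of 0.00145 to 0.0573 over its alternatives. Col13a1 stood at 1.67, 1.06 and 2.51 CPM against 3.15, 4.29, 5.33 and 2.46 CPM, with mutant 3 above wild-type 4. Its call was close to the threshold (-1.12, SE 0.41, adjusted p = 0.0455) and was lost without mutant 1 (0.100), mutant 2 (0.114), wild-type 1 (0.0679), wild-type 2 (0.0909) and wild-type 3 (0.111), in a range of 0.0202 to 0.114.

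FACIT collagens sit on the surface of fibrils and have interrupted helices. Of 7 tested, Col16a1, Col19a1, Col20a1 and Col22a1 fell and Col9a3, Col12a1 and Col14a1 were not called. Col16a1 was nearly the same in the 3 mutants (6.52, 6.87 and 6.58 CPM) and stood at 12.97, 13.3, 15.2 and 24.5 CPM in wild type (-1.31, SE 0.27, adjusted p = 0.00471, edgeR). Col20a1 stood at 3.11, 1.45 and 1.43 CPM against 5.69, 5.11, 5.86 and 5.92 CPM (-1.49, SE 0.34). Col22a1, known from muscle-tendon junctions, had 4, 7 and 1 counts in mutant spleens and 22, 21, 38 and 96 in wild type (-2.96, SE 0.58). It reached the filter through wild-type libraries alone and so could hardly be other than lower. Col19a1 stood at 0.516, 0.247 and 0.0651 CPM against 0.778, 1.26, 0.996 and 2.59 CPM (-2.29, SE 0.69, adjusted p = 0.0228). That call was lost without mutant 2 (-2.22, adjusted p = 0.0705) and without wild-type 4 (-1.81, adjusted p = 0.0533), in a range of 0.00339 to 0.0804. Col14a1, the most abundant FACIT gene, stood at 58.5, 38.1 and 22.4 CPM in mutant spleens and at 52.7, 53.2, 55.0 and 139 CPM in wild type. Mutant 1 lay inside the wild-type range and it was not called (-0.92, SE 0.46, interval -1.99 to 0.15), though its share of collagen counts was 4.31% ± 0.755 in mutant spleens and 8.45% ± 1.36 in wild type. Col12a1 stood at 5.63, 11.7 and 15.1 CPM against 6.33 to 13.9 CPM (0.31, SE 0.41). Col9a3 stood at 1.15, 1.80 and 2.87 CPM against 2.54 to 3.25 CPM (-0.54, SE 0.35) and fell without mutant 3 (-0.93, adjusted p = 0.0353, range 0.0353 to 0.558). Its partner chain Col9a2 had 0 counts in all mutants and 5, 10, 6 and 20 in wild type, at least 8.34-fold lower when the mutant libraries together are set to 3 counts. It was below the filter with all libraries in the fit, and was called lower by DESeq2 (-5.43, SE 1.47, adjusted p = 7.44e-04), by edgeR without a filter (-6.26, SE 1.09) and when any 1 mutant was left out. In the fits without 1 mutant, Col9a2 passed the filter through wild-type libraries alone and so could hardly be other than lower.

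Type VII collagen, made from Col7a1 (chr9:108953745-108984875, plus strand), builds the anchoring fibrils under stratified epithelia. Among collagen genes called lower it was the most abundant, at 13.03, 11.6 and 9.28 CPM in mutant spleens and 28.0, 32.5, 35.2 and 35.3 CPM in wild type. The groups were well apart, a 2.90-fold decrease (-1.54, SE 0.18, adjusted p = 4.95e-04, edgeR). Of the short-chain network collagens, Col8a2 fell from 4.21, 3.44, 4.36 and 9.45 CPM to 1.32, 1.09 and 0.716 CPM (-2.36, SE 0.46, adjusted p = 0.00355), and Col8a1 was near 1 CPM in both groups (0.16, SE 0.45). The multiplexins of vessel basement membranes were not called: Col18a1, the source of endostatin, stood at 38.6, 21.7 and 18.6 CPM against 25.4 to 34.2 CPM (-0.12, interval -0.75 to 0.50). Col15a1 stood at 5.65, 4.58 and 6.87 CPM against 4.29 to 7.96 CPM (0.04, interval -0.65 to 0.74). Col28a1 was highest in mutant 1 (8.66 CPM, against 1.52 and 2.34 CPM in the other mutants and 1.89 to 5.10 CPM in wild type). Col26a1 stood at 1.96, 0.775 and 0.260 CPM against 0.259 to 0.660 CPM. Neither was called (0.45, SE 0.63, and 1.13, SE 0.64), and Col26a1 rose without mutant 3 (1.58, adjusted p = 0.0322, range 0.0322 to 0.731). The remaining members were at the edge of detection: over all 7 libraries Col24a1 had 21 counts, Col10a1 had 3 and Col9a1 had 2. In the count table Col10a1 lies within a span shared with Nt5dc1 (7110 counts), and short RNA genes or low-count genes overlap Col7a1, Col9a3, Col17a1 and Col27a1 (0 to 29 counts in all), whose reads cannot be told apart without strand.

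**Figure D3:**
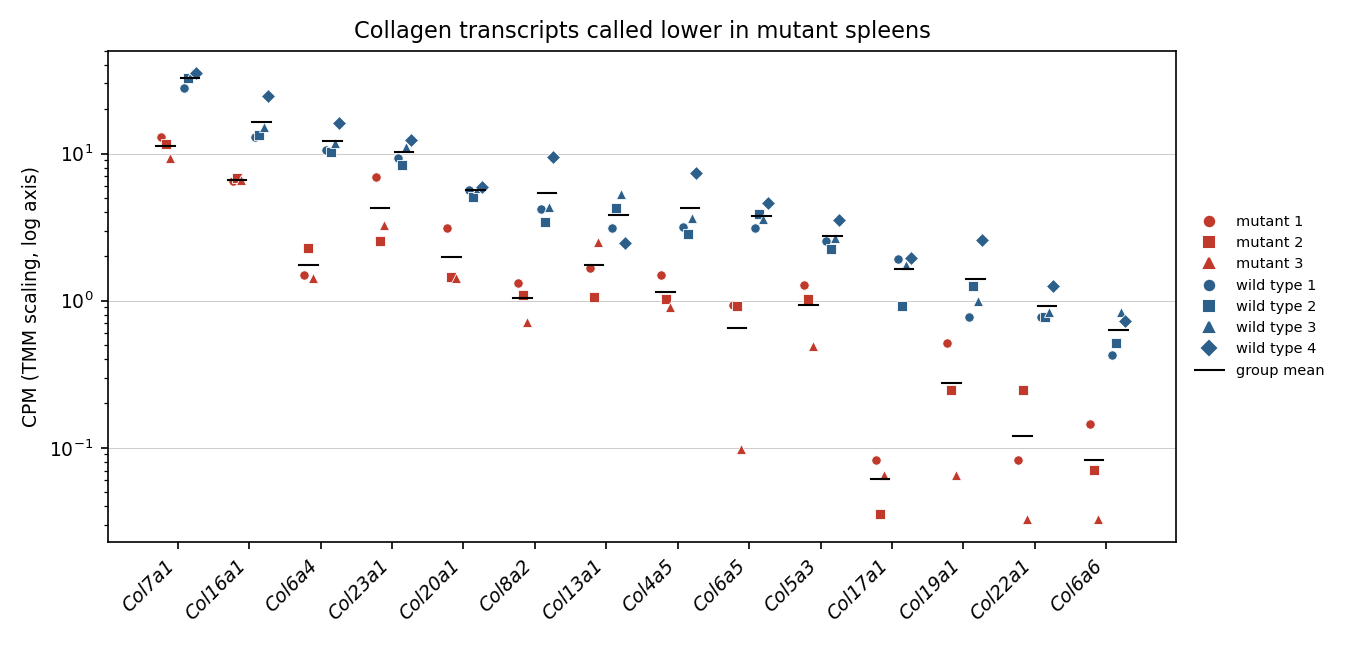
CPM (TMM scaling, log axis) of the 14 collagen genes called lower in the mutant, from the most to the least abundant, 1 symbol per library and a black line for each group mean. The groups are separate for 13 of them, and for Col13a1 mutant 3 (2.51 CPM) lies above wild-type 4 (2.46 CPM).

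Per kilobase of exon, which allows levels of different genes to be compared, the leading collagen genes of wild-type spleen were Col1a2 at 24.6 ± 10.98, Col3a1 at 18.3 ± 11.6, Col4a1 at 16.4 ± 7.13, Col4a2 at 12.2 ± 3.79 and Col14a1 at 11.6 ± 6.64 CPM per kilobase (SD, n = 4). Neighbours in this order do not differ beyond their spread. In the mutants the order began with Col4a1 at 21.6 ± 8.04, Col1a2 at 20.8 ± 7.05, Col4a2 at 16.6 ± 6.05 and Col3a1 at 15.8 ± 10.7 CPM per kilobase (n = 3), again within their spread. Col11a2 rose from the 14th place to the 7th (2.92 ± 0.284 to 7.54 ± 0.416 CPM per kilobase), and Col7a1 went from the 9th to the 16th. The 12 most abundant genes, ranked with the mutants included, took 86.1% to 91.3% of collagen counts in mutant spleens and 79.1% to 83.2% in wild type. Fibrillar genes took 43.9% to 55.1% against 42.5% to 46.5%, and FACIT genes 5.995% to 8.58% against 11.8% to 14.3%. These shares do not depend on the library scaling, and were not tested.

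Ratios were compared within each library between chains that join in 1 molecule, between chromosomal neighbours, and between related types (Col3a1 to Col1a1, the main chains of types III and I, and Col15a1 to Col18a1, the 2 multiplexins). The log2 ratio of Col1a1 to Col1a2 per kilobase was -1.15, -0.64 and -0.86 in mutant spleens and -1.63, -1.59, -1.72 and -1.44 in wild type, so Col1a1 stood closer to Col1a2 in each mutant than in any wild-type spleen. The difference was 0.71 (exact two-sided permutation p = 0.0286, the smallest that 3 against 4 libraries allow, and 0.114 after Benjamini-Hochberg adjustment over 8 ratios). The log2 ratio of Col3a1 to Col1a1 was 0.59, 0.61 and -0.37 in mutant spleens and 1.05, 0.84, 1.205 and 1.23 in wild type, also without overlap (difference -0.80, exact permutation p = 0.0286, adjusted p = 0.114). Wild-type 4, with the highest level of all 3 genes among the wild-type spleens, was the wild-type spleen nearest the mutants for the first ratio (-1.44) and the farthest from them for the second (1.23). Neither ratio passed the adjusted threshold. The head-to-head pair overlapped throughout: Col4a1 to Col4a2 was 0.35, 0.59 and 0.16 in mutant spleens and 0.39, 0.31, 0.28 and 0.61 in wild type (difference -0.03, exact permutation p = 0.857). Col3a1 to its neighbour Col5a2 differed by -0.00315 and Col6a1 to Col6a2 by -0.27 (exact permutation p = 0.971 and 0.286). Col5a1 to Col5a2 spread from -0.14 to 3.00 among the mutants, Col6a1 to Col6a3 from -0.79 to 3.79, and Col15a1 to Col18a1 from -2.60 to -1.26. Their differences of 1.29, -0.28 and 0.26 were within that spread (exact permutation p = 0.200, 0.714 and 0.600).

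**Figure D4:**
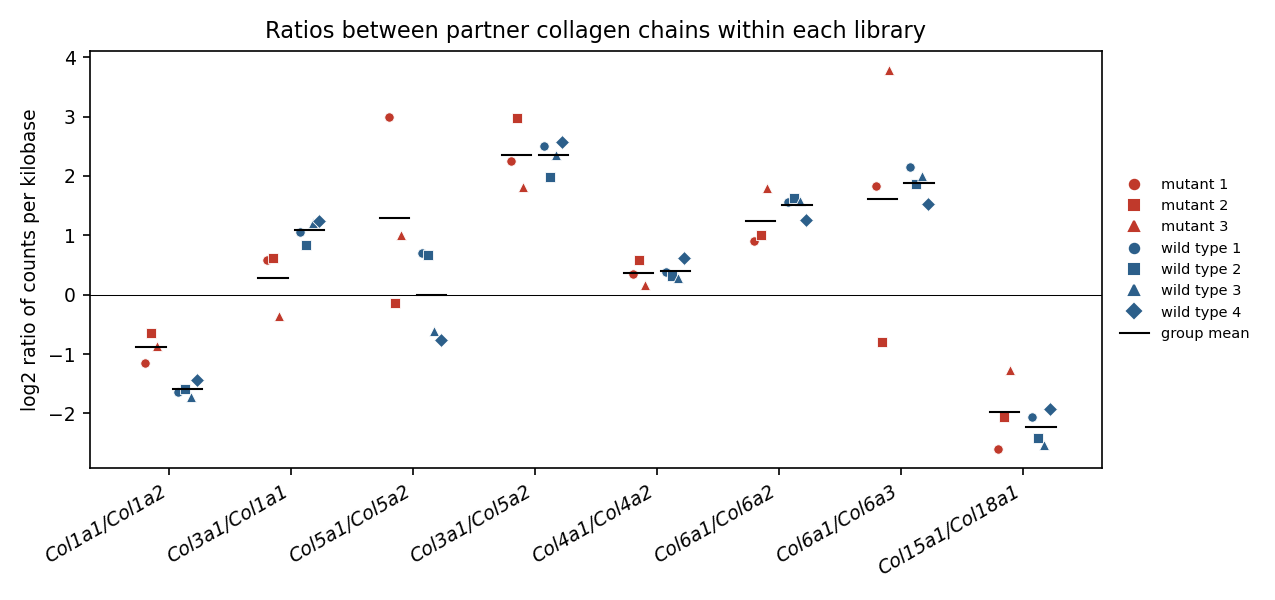
Log2 ratio of counts per kilobase between 2 collagen chains in each library (1 symbol per library, black line for the group mean). The groups are separate for Col1a1/Col1a2 (means -0.88 and -1.60) and Col3a1/Col1a1 (0.28 and 1.08), and lie on each other for Col4a1/Col4a2 (0.37 and 0.40).

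Spread was wide for collagen genes in both groups. The SD of log2 CPM was larger in the mutant than in the wild-type group for 25 of 35 tested genes, with medians of 0.64 and 0.49, against 0.40 and 0.21 over all tested genes. Both groups thus varied more in their collagens than in the typical gene. The larger spread of the mutants was also present over all tested genes and is not particular to collagens. Relative to the wild-type mean, the median log2 level of the 12 most abundant members was 0.39, 0.33 and -0.37 in mutant 1, 2 and 3 and -0.34, -0.28, -0.08 and 0.70 in wild-type 1 to 4, so the mutants lay inside the wild-type range except mutant 3, which lay just below it. For the other 23 it was -1.12, -1.49 and -1.81 in mutant spleens and -0.22, -0.28, -0.03 and 0.57 in wild type. This split uses the ranking that includes the mutants.

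Genes that build, cut and bind collagen were read from the same fit, and each count below stands against 28.5% higher and 28.9% lower over all tested genes. Of 20 genes for chain modification and folding, 3 rose (15%) and 4 fell (20%), both below those shares (median -0.24). P4hb, the shared subunit of prolyl hydroxylase, rose (0.74, SE 0.18). Leprel1, a prolyl 3-hydroxylase now named P3h2, and Colgalt2, which adds galactose to collagen, fell (-1.44, SE 0.35, and -2.42, SE 0.51). Colgalt2 reached the filter through wild-type libraries alone and so could hardly be other than lower. Serpinh1, the collagen chaperone HSP47, stood at 58.6, 51.5 and 22.3 CPM in mutant spleens and 55.0, 56.9, 84.4 and 157 CPM in wild type and was not called (adjusted p = 0.101, edgeR). Of 12 tested genes for trimming and crosslinking, 3 rose (25%) and 2 fell (16.7%; median -0.34). Adamts3, a procollagen N-proteinase, stood at 17.8, 9.59 and 14.8 CPM against 1.62 to 3.22 CPM (2.55, SE 0.32). The crosslinking enzyme gene Loxl2 rose (1.04, SE 0.28), a call lost without mutant 2 (0.90, adjusted p = 0.0513, range 0.00238 to 0.0907), and Loxl3 fell (-2.08, SE 0.35). Of 13 tested breakdown genes, 1 rose (7.69%) and 5 fell (38.5%; median -0.50). Mmp3 stood at 18.1, 16.0 and 1.63 CPM against 0.813 to 1.44 CPM (3.42, SE 0.72), while Mmp9, a gelatinase of neutrophils and macrophages, and the inhibitor Timp3 fell (-2.92, SE 0.43, and -1.76, SE 0.24).

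Collagen receptors were lower or not called: 5 of 9 fell (55.6%, against 28.9% of all tested genes), among them the receptor kinases Ddr2 (-2.29, SE 0.32) and Ddr1 (-1.04, SE 0.21) and the integrin chain Itga2 (-1.71, SE 0.36), with a list median of -1.43. Among 15 basement membrane partners 7 fell (46.7%) and 8 were not called (median -0.77). The laminin genes Lama3 (-2.58, SE 0.29) and Lamc3 (-1.37, SE 0.35) fell, beside Col4a1 and Col4a2, which were not called. Lama3 and Lamc3 were scarce, with wild-type means of 3.07 and 3.29 CPM. The most abundant laminin genes of the list in wild type, Lamc1 (40.5 CPM; -0.99, SE 0.61) and Lamb2 (35.4 CPM, -0.66, SE 0.28), were not called. Of 16 tested partners of interstitial fibrils 2 rose and 7 fell (43.8%; median -0.90). The fibril-binding proteoglycan genes Fmod (-2.06, SE 0.24), Prelp (-1.82, SE 0.22) and Dcn (-2.04, SE 0.41) fell. Fbln1, a matrix glycoprotein gene, went from 1.70, 2.22, 3.45 and 5.62 CPM in wild type to 84.5, 100.5 and 58.6 CPM in the mutants (4.62, SE 0.44, adjusted p = 2.77e-04, edgeR). Of 18 genes of TGF-beta and matrix growth factors, 12 fell (66.7%) and Smad3 rose (median -1.65). Tgfbr2, its receptor, Smad7, a feedback inhibitor, and Ltbp4, which holds latent TGF-beta in the matrix, fell (-1.88, SE 0.15, -3.25, SE 0.37, and -2.30, SE 0.26).

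Markers of the cell types that make collagen, or that could be carried over from tissue beside the spleen, had the following values. Their part in the collagen results was not tested. Each count of calls below stands against 28.5% higher and 28.9% lower over all tested genes. All 18 endothelium markers fell, with Flt1 (-1.52, SE 0.20), Tie1 (-1.51, SE 0.25) and Sox17 (-1.89, SE 0.32) at the smallest p, and their summed level was 405 to 607 CPM in mutant spleens and 919 to 1076 CPM in wild type. Of 20 reticular cell and fibroblast markers 13 fell and 2 rose (summed 1099 to 2029 against 1875 to 2432 CPM). Thy1, which T cells also express, made up most of that sum in mutant 1, 2 and 3 (619, 1404 and 1532 CPM). Without Thy1 the list, in a sum chosen after the values were seen, stood at 480 to 625 CPM in mutant spleens and 1724 to 2311 CPM in wild type, with no overlap. That sum still holds Cr2, which B cells also express and which fell. Cr2 stood at 1.11 to 46.99 CPM in mutant spleens and 533 to 664 CPM in wild type. Its part in the gap was not tested, so the gap is not a measure of reticular cells alone. Cxcl13 and Ccl21a, chemokines of the white pulp stroma, fell (-4.10, SE 0.33, and -4.11, SE 0.30), and the 2 that rose were Pdgfrb (1.57, SE 0.33) and Thy1 (2.95, SE 0.33). Of 12 smooth muscle and pericyte markers 5 fell, among them Mylk (-1.56, SE 0.32) and Synpo2 (-2.27, SE 0.47), and Notch3, also a gene of immature T cells, rose (2.88, SE 0.49), with sums of 247 to 457 against 286 to 445 CPM. Without Notch3 (54.0, 169 and 271 CPM in mutant 1, 2 and 3) the sums were 193, 287 and 91.4 CPM there and 268 to 413 CPM in wild type. Of 9 mesothelium markers, 3 fell (33.3%, near the 28.9% of all tested genes): Wt1 (-1.30, SE 0.35), Gpm6a (-1.52, SE 0.56) and Krt18 (-3.05, SE 1.07). The call of Gpm6a was lost without any 1 library except mutant 2, with adjusted p up to 0.113, and that of Krt18 without any 1 mutant, with adjusted p up to 0.117. Krt18 also reached the filter through wild-type libraries alone and so could hardly be other than lower. It stood at 4.22 CPM in wild-type 2, the library with the most pancreas transcripts, and at 0.310 to 0.778 CPM in the other wild-type spleens. Krt8 of the same list was also highest there (2.48 CPM against 0.0707 to 0.792 CPM). The list's sums were 8.40 to 20.4 CPM in mutant spleens and 20.01 to 45.8 CPM in wild type. The 8 fat markers were not called by edgeR, with Retn (-2.95, SE 1.35), Plin1 (-2.10, SE 1.48) and Adipoq (-1.77, SE 1.37) at the smallest p. Retn was called lower by DESeq2 (-3.07, adjusted p = 0.0406, range 0.0406 to 0.360), and Adipoq fell without mutant 1 (-4.56, adjusted p = 0.0479, range 0.0479 to 0.671). In the mutants 4 of 12 pancreas markers were at 0 (Amy2b, Ins1, Ins2 and Gcg), and 6 of 7 tested were lower, among them Prss2 (-11.34, SE 3.62), Cela2a (-11.50, SE 3.69) and Ctrb1 (-11.21, SE 3.55). These 3 calls were lost without any 1 mutant, with adjusted p up to 0.0941, and the levels come from wild-type 1 and 2. With limma-voom the values were -5.07, -4.91 and -4.93, and none of the 3 was called (adjusted p = 0.410, 0.468 and 0.465). The same 3 genes reached the filter through wild-type libraries alone and so could hardly be other than lower. No marker of the endothelium, reticular cell, smooth muscle, mesothelium or fat lists was at 0 throughout.

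Markers of blood cells were read beside these values, and their counts of calls also stand against 28.5% higher and 28.9% lower over all tested genes. All 12 immature T cell markers rose, with Rag1 (8.55, SE 0.49), Arpp21 (8.10, SE 0.44) and Themis (2.44, SE 0.16) at the smallest p. The sum of the 12 was 3846, 7536 and 6847 CPM in mutant 1, 2 and 3 against 684 to 907 CPM in wild type. Rag2, at 0.0443 to 0.185 CPM in wild type, reached the filter through mutant libraries alone and so could hardly be other than higher. Of 10 macrophage markers 6 fell, including Timd4 (-3.58, SE 0.51), Marco (-2.80, SE 0.41) and Siglec1 (-4.18, SE 0.85), with sums of 212 to 1323 against 1926 to 2357 CPM. Of 10 megakaryocyte and platelet markers 7 fell, including Gp1bb (-2.01, SE 0.60) and Gp1ba (-2.23, SE 0.66), with sums of 9.87 to 83.6 against 207 to 296 CPM. The call of Gp1bb was lost without wild-type 2 (adjusted p = 0.0551, range 0.00158 to 0.0551), as was that of Gp1ba (0.0535), which was also lost without mutant 1 (0.0524, range 0.00127 to 0.0535). Mutant 3, the mutant with the lowest summed collagen level, also had the lowest macrophage, mesothelium, megakaryocyte and endothelium sums, while the full reticular cell and smooth muscle lists were lowest in mutant 1 and fat in mutant 2. Without Thy1 mutant 1 and 3 were level for reticular cells (480 CPM each), and without Notch3 mutant 3 was lowest for smooth muscle. CPM here are relative levels, counts over a library size with TMM scaling, so a rise of one cell type can lower the values of others. The part of this shift in cell types in the collagen values was not tested.

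**Figure D5:**
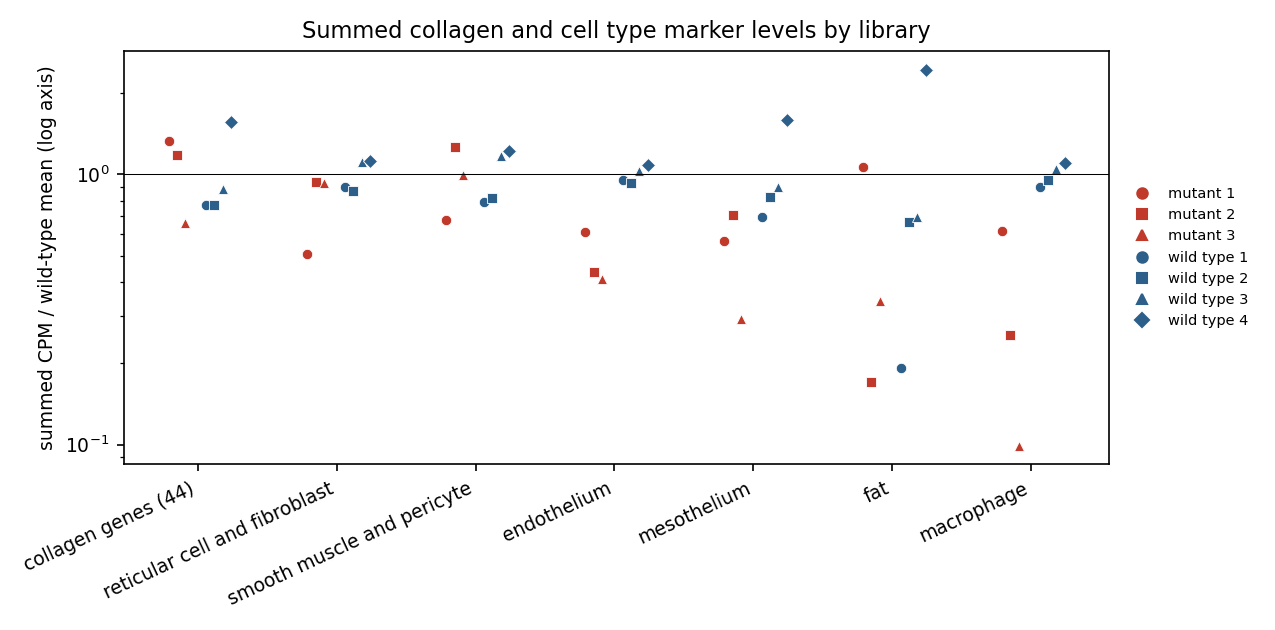
Summed CPM of the 44 collagen genes and of 6 marker lists in each library, divided by the wild-type mean (log axis), 1 symbol per library. Collagen sums of the mutants (0.66 to 1.33) overlap wild type (0.77 to 1.57), endothelium sums do not (0.41 to 0.61 against 0.93 to 1.09), and fat and mesothelium are highest in wild-type 4 (2.44 and 1.59). The reticular cell sum includes Thy1 and the smooth muscle sum Notch3, both also T cell genes. The reticular cell sum also includes Cr2, which B cells express.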

How the data were processed

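Whole-spleen RNA libraries, 3 mutant and 4 wild type, were analysed from the table of raw counts per gene that the authors deposited. Per the submitters' processing notes, the tools included bcl2fastq 2.17.1.14, TopHat2 2.0.12, featureCounts of Subread 1.4.6 and edgeR, with build mm10; the strand setting is not given in the sources used here, so overlapping and antisense genes cannot be told apart. No column of other samples was present, and the deposited table of normalized values was not used. Total counts ranged from 26889712 to 63612532 per library.

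Genes were kept with filterByExpr of edgeR 4.0.16 (at least 10 counts at the median library size, 0.280 CPM, in at least 3 libraries), which left 15188. TMM scaling and the quasi-likelihood test (R 4.3.3) were fitted over all of them, and p-values were adjusted over all by Benjamini and Hochberg. Fold changes are log2, mutant minus wild type, and intervals are unadjusted 95% intervals. Levels per kilobase used the merged exon length of GENCODE M21. Ratios added 0.5 counts per gene and were compared by an exact two-sided permutation test over libraries, whose smallest p is 0.0286; the smallest value noted when the test was planned was too high. The step that fits all genes was tested on simulated data.

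Collagen genes, gene lists and tests were chosen with earlier results of these data known. Named by rule were the 12 most abundant collagen genes, the 5 with the largest changes each way, and the 3 genes of each other list with the smallest p; 2 of these list genes are not reported here, and all other names were chosen after their values were seen. Alternatives were DESeq2 1.42.0, limma-voom (limma 3.58.1), other scalings and filters, a replicate block and leaving out each library.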

Additional observations from a re-analysis of the deposited data

Results flagged for a closer look

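In 42 sets of 4 wild-type values, the gap between an extreme library and its nearest neighbour was compared with the whole range, and 7 gaps were too wide for 4 values (Dixon's 95% limit). Chance gives about 1 in 20 for independent sets of normally spread values. These sets share the same wild-type libraries, and the collagen sum contains flagged genes, so the number of gaps is not a test. Wild-type 4 accounted for 6 of the 7. It had 89.4 CPM of Col1a1 (next highest 39.3), 139 CPM of Col14a1 (next 55.0), 179 CPM of Col4a1 (next 91.7), 9.45 CPM of Col8a2 (next 4.36) and 1.27 CPM of Col22a1 (next 0.841), and its collagen genes summed to 1337 CPM (next 755). Its fat markers, at 73.9 CPM, and mesothelium markers, at 45.8 CPM, were also the highest of the 7 libraries, and their part in these values was not tested. Wild-type 2 had 15552 CPM of summed pancreas markers (next 520). Its collagen sum was 658 CPM, as was that of wild-type 1.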

How the results depend on the processing

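The 15 collagen genes called kept their direction in every alternative run. Col11a2 stayed higher in all 14 (1.12 to 1.42). The number of collagen genes higher, 1 with all libraries, was 2 without a filter on low counts, 2 with DESeq2 and 1 to 4 when 1 library was left out. The number lower, 14 with all libraries, ran from 10 with the replicate block to 15. Replicate numbers did not pair the samples (correlations of same-numbered deviations 0.042, -0.19 and 0.10), and with the replicate block Col5a3, Col13a1, Col19a1 and Col23a1 were not called and the count over all genes was 6090 against 8724. The block also ended the calls of Mmp3 (3.05, adjusted p = 0.0782), Lamc3 (-1.45, 0.0558), Wt1 (-1.01, 0.0732), Gpm6a (0.128), Krt18 (0.0816), Cela2a (0.0645) and Ctrb1 (0.0576). Scaling by library size alone moved the median of all genes from -0.02 to -0.26 and the higher share of all calls from 49.7% to 38.1%. It left the same 15 collagen genes called. Without a filter Col13a1 was lost (adjusted p = 0.0549, edgeR), as with limma-voom (0.0504), and a minimum of 1 CPM in 3 libraries left Col22a1 and Col6a6 untested. Values that changed sign all belong to genes not called. With the replicate block these were Col3a1 (0.093), Col5a2 (0.018), Col6a2 (0.26) and Col1a2 (0.067). With limma-voom it was Col6a3 (-0.16), and with library size alone Col8a1 (-0.10) and Col15a1 (-0.23). Rxrb changed sign without 1 mutant (-0.26 to 0.035 over the libraries left out). Leaving out 1 library at a time gave ranges across zero for Col3a1 (-0.86 to 0.32), Col5a2 (-0.56 to 0.061), Col6a3 (-1.05 to 1.38), Col6a2 (-0.18 to 0.24), Col18a1 (-0.42 to 0.079), Col8a1 (-0.31 to 0.45), Col15a1 (-0.10 to 0.27), Col1a2 (-0.51 to 0.11) and Col28a1 (-0.59 to 0.83). The cause of these changes was not tested. Depth limits genes with few counts, such as Col17a1 with 4, 1 and 2 in the mutants.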
